A study of Mus with 12 samples.

Results

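Ly6a, Ly6c1, Ly6c2, Ly6e and Ly6i are 5 genes of the Ly6 family that are known from monocytes and activated macrophages of the mouse. They were chosen by gene name, with their levels in these libraries already known, and they make up 5 of the 27294 genes in the deposited table. All 5 passed the filter on low counts that left 17291 genes for testing. Because the choice used the measured levels of all 4 groups, the values and differences of the 5 genes are given as a description, with no p-value.

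Ly6 proteins are small, cysteine-rich proteins that are tied to the outer face of the cell membrane by a glycosylphosphatidylinositol (GPI) lipid anchor, and their genes lie side by side in a cluster. In mouse blood, Ly6C, the antigen encoded by Ly6c1 and Ly6c2, is the marker by which classical, inflammatory monocytes are told from patrolling, non-classical ones. Transcription of several of these genes in mouse leukocytes is known to respond to interferons.

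RNA sequencing was done on mouse primary peritoneal macrophages, which are phagocytes washed from the abdominal cavity, in 4 groups of 3 libraries. These were knockout (KO) cells with oxLDL, KO cells with no treatment label, wild-type (WT) cells with oxLDL and WT cells with no treatment label, the last of each genotype being called untreated here. The treatment label oxLDL stands for oxidised low-density lipoprotein, which macrophages take up in arterial plaques, while the sample titles say LDL. The genotype label is KO with no gene, and WEE1, a kinase that delays mitosis, is the gene in the title of the series. No label gives the strain, the age or sex of the mice, the promoter of a Cre, or the dose and duration of the treatment. Whether the 3 libraries of a group came from separate mice is not given either, so the spread between them may be technical. With 3 libraries against 3, the smallest p that an exact permutation test on 1 value could give is 0.1.

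Counts per library summed to between 53588814 and 76809931, with WT replicate 2 the shallowest in both treatments. Wee1 was lower in KO but not absent, with 1.38 ± 0.188 FPKM in KO with oxLDL, 1.48 ± 0.228 in untreated KO, 1.62 ± 0.169 in WT with oxLDL and 3.05 ± 0.231 in untreated WT (SD, n = 3; FPKM is the fragment number scaled by transcript length and library size). KO differed from WT by -0.93 ± 0.14 log2 (SE) untreated and by -0.53 ± 0.14 with oxLDL (adjusted p = 0.000139 and 0.00587 in edgeR's quasi-likelihood test, Benjamini-Hochberg adjusted). With oxLDL the libraries overlapped, at 1.25 to 1.6 FPKM in KO and 1.44 to 1.78 in WT. The fitted difference there also depends on scaling factors that FPKM leaves out, 1.03 to 1.04 in KO and 0.832 to 0.843 in WT. Within WT, Wee1 was lower with oxLDL, at -0.5 ± 0.14 log2 (adjusted p = 0.00864 in edgeR's test). General macrophage markers (7 genes) summed to 10600 to 11300 FPKM in KO with oxLDL, 11100 to 11800 in untreated KO, 14600 to 15600 in WT with oxLDL and in untreated WT 21000 to 21400. Most of this sum was Lyz2, with 8540 FPKM in KO with oxLDL, 8860 in untreated KO, 12500 in WT with oxLDL and 18500 in untreated WT. Only Cd68 was higher in KO, at 2000 FPKM in both KO groups, 1380 in WT with oxLDL and 1630 in untreated WT. Adgre1 had 152 FPKM in KO with oxLDL, 158 in untreated KO, 762 in WT with oxLDL and 545 in untreated WT. Fcgr1 had 9.28 FPKM in KO with oxLDL, 9.32 in untreated KO, 131 in WT with oxLDL and 40.9 in untreated WT. Csf1r, Itgam and Mertk also had lower means in KO, by less. The defining genes of large resident peritoneal macrophages were low in every group: their 7 genes summed to 3.54 to 3.91 FPKM in KO with oxLDL, 3.6 to 3.73 in untreated KO, 3.94 to 4.75 in WT with oxLDL and in untreated WT 5.3 to 5.68.

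All 5 Ly6 genes were far lower in KO than in WT libraries, whatever the treatment, and 4 of them were near 0 or undetected in KO. Their summed level was 52.2 ± 1.82 FPKM in KO with oxLDL, 54.9 ± 0.597 in untreated KO, 562 ± 8.29 in WT with oxLDL and 444 ± 12.6 in untreated WT (SD, n = 3). Within WT each gene was somewhat higher with oxLDL than without, and within KO no gene was called different. Ly6e was the one member with a substantial level left in KO cells.

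**Figure D1:**
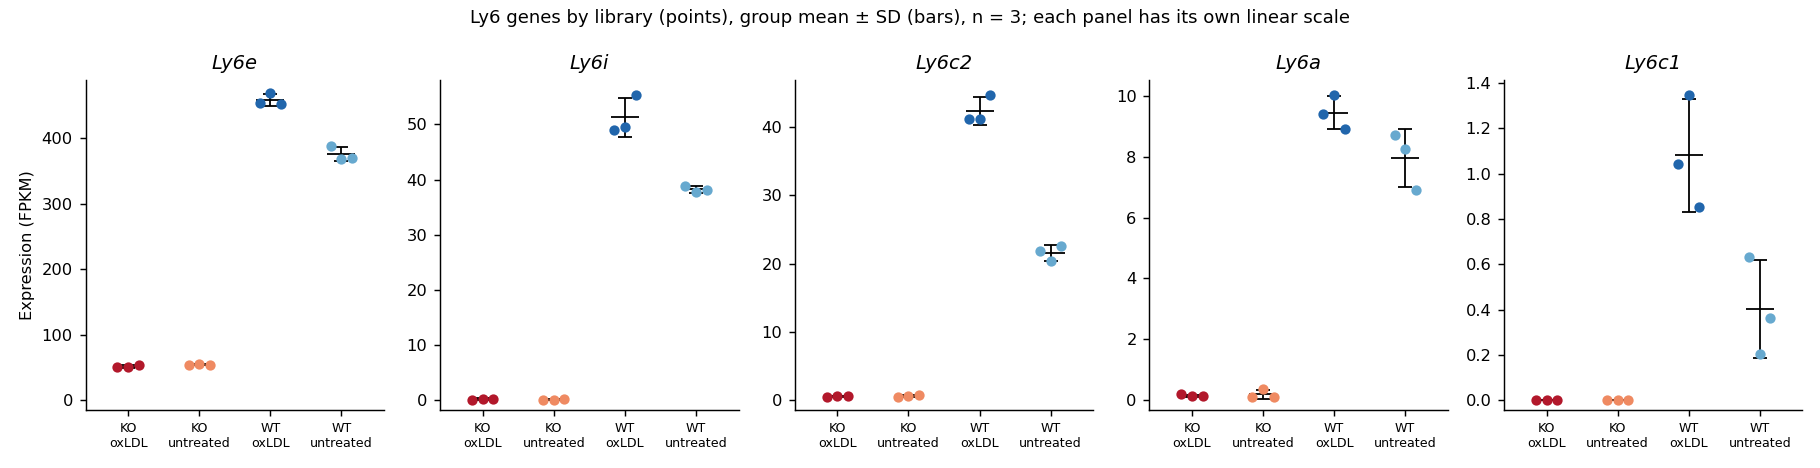
Expression of the 5 Ly6 genes in FPKM (vertical axis, linear, own scale per panel) in each library (points) with the group mean and SD (bars) for KO with oxLDL, untreated KO, WT with oxLDL and untreated WT. KO libraries lie near 0 for 4 genes and at 49.9 to 54.6 FPKM for Ly6e, all below the WT libraries.

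Ly6c2 encodes the Ly6C antigen of classical monocytes. Its FPKM was 0.473, 0.632 and 0.546 in the libraries of KO with oxLDL and 0.425, 0.552 and 0.724 in those of untreated KO. In WT it was 41.1, 41.2 and 44.7 FPKM with oxLDL and 21.9, 20.3 and 22.6 FPKM untreated. All 6 WT libraries lay above all 6 KO libraries, the WT libraries with oxLDL lay above the untreated ones, and the KO groups overlapped. The order of the group means was WT with oxLDL, untreated WT, untreated KO and KO with oxLDL, and KO with oxLDL, at 0.55 ± 0.0798 FPKM, and untreated KO, at 0.567 ± 0.15 FPKM (SD, n = 3), did not differ beyond their spread. The means of Ly6e and Ly6a had the same order, while Ly6i was higher in KO with oxLDL than in untreated KO, again within the spread.

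Ly6c1, the near-identical neighbour of Ly6c2 that encodes the same antigen, had 0 counts in each of the 6 KO libraries. WT libraries held 139, 128 and 112 counts with oxLDL (1.04, 1.35 and 0.851 FPKM) and 86, 20 and 49 counts untreated (0.634, 0.205 and 0.363 FPKM). The WT groups did not overlap, with 1.08 ± 0.25 FPKM with oxLDL and 0.401 ± 0.217 FPKM untreated (SD, n = 3). Reads that match both Ly6c genes could have been given to either, since how the authors assigned such reads is not given in the sources used here. Of all counts listed under the pair, Ly6c1 took 0 of 370 in KO with oxLDL and 0 of 373 in untreated KO. The upper limits of the exact 95% intervals are 0.992% and 0.984%. Ly6c1 took 379 of 25200 in WT with oxLDL (1.5%, exact 95% interval 1.36 to 1.66%) and 155 of 13073 in untreated WT (1.19%, 1.01 to 1.39%). These limits and intervals cover counting error only, and between libraries the share ran from 1.15 to 1.97% in WT with oxLDL and in untreated WT from 0.621 to 1.75%. The limit for KO with oxLDL lies below all 3 WT libraries with oxLDL, and the limit for untreated KO lies below the interval of untreated WT but within the range over its libraries.

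Ly6i encodes a further member of the cluster that is made by mouse monocytes and macrophages. Libraries of KO with oxLDL held 0, 26 and 27 counts (0, 0.278 and 0.284 FPKM), and those of untreated KO held 0, 5 and 13 counts (0, 0.051 and 0.13 FPKM). In WT it had 49.0, 49.6 and 55.3 FPKM with oxLDL and 38.9, 37.8 and 38.1 FPKM untreated. The KO groups overlapped, with 1 library of each at 0 counts, and the WT groups did not overlap. By mean FPKM, Ly6i ranked 13847 of the 27294 genes in KO with oxLDL, 16580 in untreated KO, 809 in WT with oxLDL and 1048 in untreated WT.

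Ly6a encodes stem cell antigen 1 (Sca-1), used as a marker of mouse haematopoietic stem cells and also present on activated lymphocytes. It had 0.185, 0.142 and 0.123 FPKM in KO with oxLDL and 0.107, 0.361 and 0.095 FPKM in untreated KO, from 10 to 36 counts per library. In WT it had 9.40, 10.03 and 8.92 FPKM with oxLDL and 8.73, 8.25 and 6.89 FPKM untreated. The 6 WT libraries were above the 6 KO libraries, and the KO groups overlapped. The WT groups were close: the lowest library with oxLDL was at 8.92 FPKM and the highest untreated library at 8.73 FPKM.

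Ly6e encodes a broadly expressed Ly6 protein that is known to alter the entry of several enveloped viruses into cells. Its libraries had 50.6, 49.9 and 53.3 FPKM in KO with oxLDL and 54.2, 54.6 and 53.4 FPKM in untreated KO. They had 454, 468 and 452 FPKM in WT with oxLDL and 388, 369 and 369.9 FPKM in untreated WT. No groups overlapped, but the KO groups lay close, with the highest library with oxLDL at 53.3 FPKM and the lowest untreated one at 53.4 FPKM. Ly6e stood at rank 687 of 27294 genes in KO with oxLDL, 661 in untreated KO, 85 in WT with oxLDL and 75 in untreated WT.

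The make-up of the Ly6 transcripts differed between the genotypes as well as their level. Ly6e was 98.3 ± 0.394% of the summed FPKM of the 5 genes in KO with oxLDL, 98.5 ± 0.445% in untreated KO, 81.5 ± 0.894% in WT with oxLDL and 84.6 ± 0.137% in untreated WT (SD, n = 3). Ly6i was 0.357% of the sum in KO with oxLDL, 0.11% in untreated KO, 9.13% in WT with oxLDL and 8.62% in untreated WT. Ly6c2 was 1.06% in KO with oxLDL, 1.03% in untreated KO, 7.54% in WT with oxLDL and 4.87% in untreated WT, below Ly6i in WT and above it in KO. Between the WT groups the Ly6c2 share did not overlap, at 7.22 to 7.97% with oxLDL and 4.67 to 5.17% untreated.

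The comparison of genotypes asks how the levels differ in cells with and without oxLDL. In untreated cells all 5 genes were called lower in KO, where 16.2% of the 17291 tested genes were called lower and 14.8% higher (adjusted p under 0.05 in edgeR's test). Ly6e differed by -2.69 ± 0.04 on the log2 scale (SE, n = 3 per group), which is 6.46-fold lower in KO. Ly6c2 differed by -5.13 ± 0.14, 35.0-fold lower in KO, and Ly6a by -5.21 ± 0.32, 37.0-fold lower. Ly6i was furthest apart, at -9.05 ± 0.43 on the log2 scale, where the KO level rests on 18 counts in all. Without untreated KO replicate 2 the Ly6a difference was -6.05, and the Ly6i difference was -8.48 without untreated KO replicate 1 and -10.27 without untreated KO replicate 3, all still called. For Ly6c1, whose KO libraries held no count, KO was at least 52.6-fold lower if 3 counts are assumed for the KO group.

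With oxLDL the 5 genes were again called lower in KO, where 27.4% of all tested genes were called lower and 30.6% higher. The log2 differences here were -3.46 ± 0.04 for Ly6e, -6.54 ± 0.14 for Ly6c2, -6.19 ± 0.34 for Ly6a and -8.37 ± 0.38 for Ly6i. In terms of fold, Ly6e was 11-fold, Ly6a 73.0-fold and Ly6c2 93.0-fold lower in KO, and Ly6c1 at least 176-fold lower. Without KO with oxLDL replicate 1, which held no Ly6i count, the Ly6i difference was -7.78. All 5 genes had every KO library below every WT library in FPKM in both comparisons. Among all tested genes, 31.2% had KO below WT without overlap untreated and 21.1% with oxLDL. The members were chosen with these differences in view, so nothing is read from their count against these shares.

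**Figure D2:**
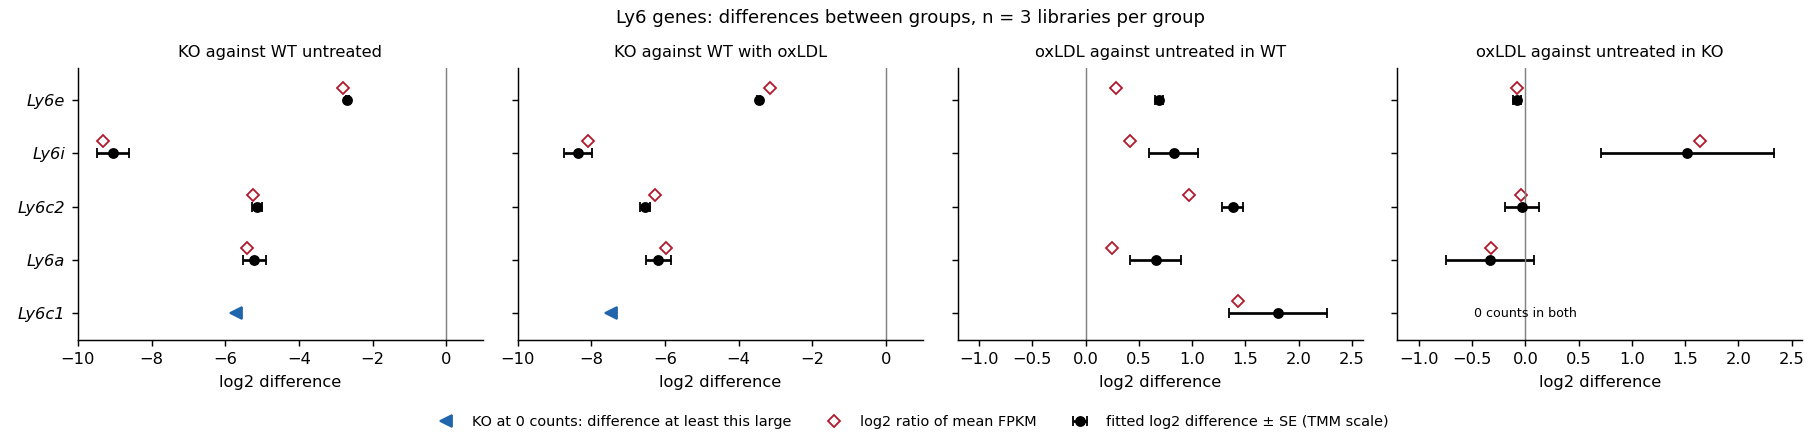
Log2 difference (horizontal axis) between groups of 3 libraries for each Ly6 gene in 4 comparisons, as the fitted value with its SE on the TMM scale (black), as the log2 ratio of mean FPKM (open diamonds), or as a lower bound where KO had 0 counts (triangles). The genotype differences run from -2.69 to -9.05 untreated, while with oxLDL in WT the fitted values run from 0.66 to 1.81.

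Transcripts of other cell types were measured beside this difference, since Ly6a and Ly6c genes are also made by lymphocytes and endothelium. The 5 natural killer cell markers summed to 0.0167 to 0.0582 FPKM in KO with oxLDL and 0 to 0.0828 in untreated KO. In WT they summed to 1.29 to 1.85 FPKM with oxLDL and 1.33 to 2.18 untreated. Ncr1, Gzma and Eomes were at 0 counts in all KO libraries. Prf1 had 3 counts in KO with oxLDL, 0 in untreated KO, 304 in WT with oxLDL and 230 in untreated WT. Klrb1c went the other way, with 26 counts in KO with oxLDL, 24 in untreated KO, 8 in WT with oxLDL and 12 in untreated WT. The 8 T cell markers summed to 11.7 to 12.2 FPKM in KO with oxLDL, 11.4 to 14.2 in untreated KO, 1.66 to 1.99 in WT with oxLDL and in untreated WT 4.87 to 5.2. Most of the KO sum was Cd28, with 11.1 FPKM in KO with oxLDL and 12 in untreated KO, while Cd3e and Trac had 0 counts in KO and 22 to 91 counts per group in WT. Endothelial markers, 5 of 6 in the table, summed to 21.8 to 24.9 FPKM in KO with oxLDL, 23.6 to 24.8 in untreated KO, 7.02 to 7.48 in WT with oxLDL and in untreated WT 10.1 to 10.8. Vwf made up most of that except in WT with oxLDL, with 19.3 FPKM in KO with oxLDL, 19.6 in untreated KO, 2.34 in WT with oxLDL and 6.44 in untreated WT. Kdr had 3.95 FPKM in KO with oxLDL, 4.44 in untreated KO, 4.41 in WT with oxLDL and 3.96 in untreated WT. Pecam1 was higher in WT, with 0.0189 FPKM in KO with oxLDL, 0.0172 in untreated KO, 0.147 in WT with oxLDL and 0.121 in untreated WT. Neutrophil markers, 6 of 8 in the table, summed to 1.33 to 1.68 FPKM in KO with oxLDL and 1.44 to 1.68 in untreated KO. In WT they summed to 4.98 to 5.49 FPKM with oxLDL and 3.05 to 3.99 untreated. S100a8 made up most of each sum, with 1.47 FPKM in both KO groups, 3.6 in WT with oxLDL and 3.17 in untreated WT. Camp had 0 counts in KO with oxLDL, 5 in untreated KO, 245 in WT with oxLDL and 53 in untreated WT. S100a9, Retnlg and Ly6g were at 0 counts in KO and at most 8 counts per group in WT. Mast cell markers (4 genes) summed to 0.948 to 1.34 FPKM in KO with oxLDL, 0.793 to 1.43 in untreated KO, 2.73 to 3.49 in WT with oxLDL and in untreated WT 4.5 to 5.29. Plasmacytoid dendritic cell markers (3 genes) summed to 1.01 to 1.12 FPKM in KO with oxLDL and 0.981 to 1.09 in untreated KO. In WT they summed to 2.75 to 2.99 FPKM with oxLDL and 1.16 to 1.27 untreated. Tcf4 made up most of each sum, with 1.04 FPKM in KO with oxLDL, 1.01 in untreated KO, 2.61 in WT with oxLDL and 1.11 in untreated WT. Siglech had 0 counts in KO with oxLDL, 17 in untreated KO, 4 in WT with oxLDL and 8 in untreated WT. B cell markers (5 genes) summed to 1.84 to 2.08 FPKM in KO with oxLDL, 1.69 to 2.53 in untreated KO, 0.91 to 1.16 in WT with oxLDL and in untreated WT 1.03 to 1.74. Markers of small peritoneal macrophages and dendritic cells (9 genes) summed to 2.55 to 3.31 FPKM in KO with oxLDL, 2.39 to 3.16 in untreated KO, 0.546 to 1.76 in WT with oxLDL and in untreated WT 0.938 to 2.46. Those of mesothelium and fibroblasts (8 genes) summed to 10.3 to 10.9 FPKM in KO with oxLDL, 9.81 to 10.5 in untreated KO, 12.1 to 14 in WT with oxLDL and in untreated WT 13.4 to 14.5. The part of such cells in the Ly6 difference was not tested. In these bulk samples, fewer cells of a type and less RNA per cell cannot be told apart.

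The genotype difference of the Ly6 genes was then set beside that of all tested genes. The comparisons without and with oxLDL share no library, so a gene's place on each axis comes from separate samples. Ly6e lay at -2.69 and -3.46, nearer to the bulk of genes, and Ly6a, Ly6c1, Ly6c2 and Ly6i lay farther out in the lower left. The median of all tested genes was -0.01 untreated and 0.05 with oxLDL.

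**Figure D3:**
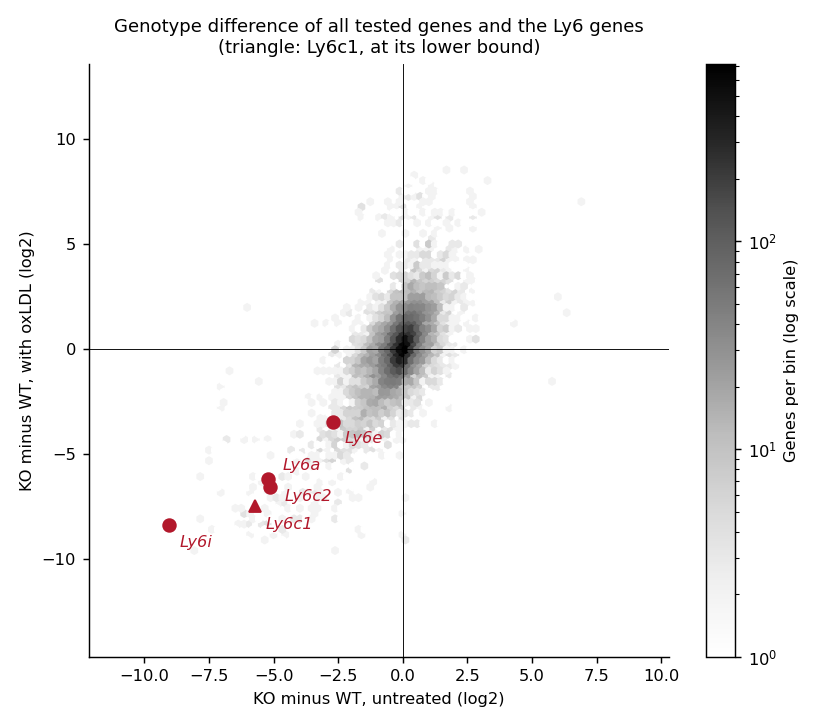
Fitted log2 difference of KO against WT in untreated cells (horizontal axis) and with oxLDL (vertical axis) for all tested genes (grey bins, darker for more genes, log colour scale) and for the Ly6 genes (red; Ly6c1 is a triangle at its lower bounds). The 5 Ly6 genes lie in the lower left, from -2.69 and -3.46 for Ly6e to -9.05 and -8.37 for Ly6i.

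In WT cells oxLDL went with higher levels of all 5 genes. The log2 change was 1.81 ± 0.46 for Ly6c1 and 1.38 ± 0.10 for Ly6c2 (SE, n = 3 per group), 0.83 ± 0.23 for Ly6i, 0.69 ± 0.04 for Ly6e and 0.66 ± 0.24 for Ly6a. All 5 were called higher, where 23.9% of tested genes were called higher and 27.2% lower, and all 5 had every library with oxLDL above every untreated one, as 15.2% of tested genes did. The Ly6a call was lost when any 1 of the 6 WT libraries was left out, at 0.55 to 0.74, in fits that kept the KO libraries. The SE in those fits comes from a spread shared by all groups, and Ly6a was near 0 in KO. With only the WT groups fitted, the Ly6a change was 0.65 ± 0.118 and still called. For Ly6i it was then 0.83 ± 0.0622.

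These changes depend on the scale in size but not in direction. The fit used TMM factors of 0.832 to 0.843 in WT with oxLDL and in untreated WT 1.1 to 1.13, while FPKM rests on library size alone. The ratio of mean FPKM of WT with oxLDL to untreated WT was 2.7 for Ly6c1, 1.96 for Ly6c2, 1.34 for Ly6i, 1.22 for Ly6e and 1.19 for Ly6a. With library totals alone the median of all tested genes moved to -0.46 from -0.06 on the log2 scale, and the calls for Ly6a (0.25) and Ly6i (0.42) were lost. On that scale 21.1% of the genes called with oxLDL in WT were higher, against 46.8% with TMM. For KO against WT, library totals put 31.5% of called genes higher untreated and 69.5% with oxLDL, against 47.8% and 52.8% with TMM, and 79.6% against 53.0% for the interaction.

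In KO cells oxLDL went with no called change in any of the 5 genes. The log2 change was -0.03 ± 0.16 for Ly6c2, -0.08 ± 0.04 for Ly6e, -0.33 ± 0.41 for Ly6a and 1.52 ± 0.81 for Ly6i (SE, n = 3 per group), and Ly6c1 had 0 counts in both groups. Ly6a had 10 to 36 counts and Ly6i 0 to 27 counts per KO library. Without untreated KO replicate 2, which held 36 Ly6a counts, the Ly6a value was 0.52. The Ly6i value was 0.95 without untreated KO replicate 1 and 2.74 without untreated KO replicate 3. Over all tested genes, 0.0116% were called higher with oxLDL in KO, namely the 2 genes Nphp4 and Ssbp4, and 0.0% were called lower. For Ly6e every KO library with oxLDL lay below every untreated one, as for 5.38% of tested genes. At an unadjusted p under 0.05, which some unchanged genes also pass, edgeR's test had 1211 of the 17291 tested genes. With adjustment, DESeq2 called 110.

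The difference between the oxLDL changes of the genotypes was tested as an interaction, the change in KO minus the change in WT. Ly6c2, at -1.41 ± 0.19 on the log2 scale, and Ly6e, at -0.77 ± 0.06, were called lower, where 19.6% of tested genes were called lower and 22.1% higher. The members were chosen with the levels of the groups known, so their calls here are a description only. Ly6a, at -0.98 ± 0.48, and Ly6i, at 0.68 ± 0.85, were not called, and Ly6c1 gave no value because KO had no counts. Leaving out 1 library moved the Ly6a value between -1.28 and -0.14 (without untreated KO replicate 2), and it was called without untreated KO replicate 3, at -1.28. For Ly6i it moved between 0.12 without untreated KO replicate 1 and 1.91 without untreated KO replicate 3, and on log2(FPKM + 1) the value was -0.26, so no direction is read from it.

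The 5 genes lie within 156.9 kb of chromosome 15, in coordinates that match GRCm38. Ly6e is at 74955051 to 74959905 on the plus strand (ENSMUSG00000022587). The others are on the minus strand: Ly6i at 74979534 to 74983430 (ENSMUSG00000022586), Ly6a at 74994877 to 74998031 (ENSMUSG00000075602), Ly6c1 at 75044018 to 75048830 (ENSMUSG00000079018) and Ly6c2 at 75108158 to 75111970 (ENSMUSG00000022584). The table holds 9 other genes within 100 kb of this span, and 3 of them, Gm8000, Gm28068 and Gm5960, lie between members with at most 17 counts in any group.

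Only 3 of the 9 neighbours had enough counts for testing, and all 3 were called lower in KO in both genotype comparisons. Gm39556, a long non-coding RNA gene on the side of Ly6e away from the other members, had 0.0741 FPKM in KO with oxLDL, 0.13 in untreated KO, 2.8 in WT with oxLDL and 1.62 in untreated WT. It was lower in KO at a log2 difference of -3.49 ± 0.57 untreated and -5.44 ± 0.63 with oxLDL (SE; adjusted p = 0.000242 and 2.81e-06 in edgeR's test). The pseudogene Gm6610 had 11 counts in KO with oxLDL, 0 in untreated KO, 234 in WT with oxLDL and 131 in untreated WT, at least 44.4-fold lower in untreated KO (adjusted p = 0.00111 in edgeR's test). Ly6m, at the edge of the window, had 0 counts in both KO groups, 46 in WT with oxLDL and 44 in untreated WT, so KO was at least 21.3-fold lower with oxLDL and at least 14.9-fold lower untreated. In the wider window of 1000 kb on either side, chosen after the values were seen, 26 further genes were tested. In untreated cells 1 of them was called higher and 3 lower in KO, and with oxLDL 11 were called higher and 4 lower, where over all tested genes 14.8% were called higher and 16.2% lower untreated, and 30.6% higher and 27.4% lower with oxLDL.

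**Figure D4:**
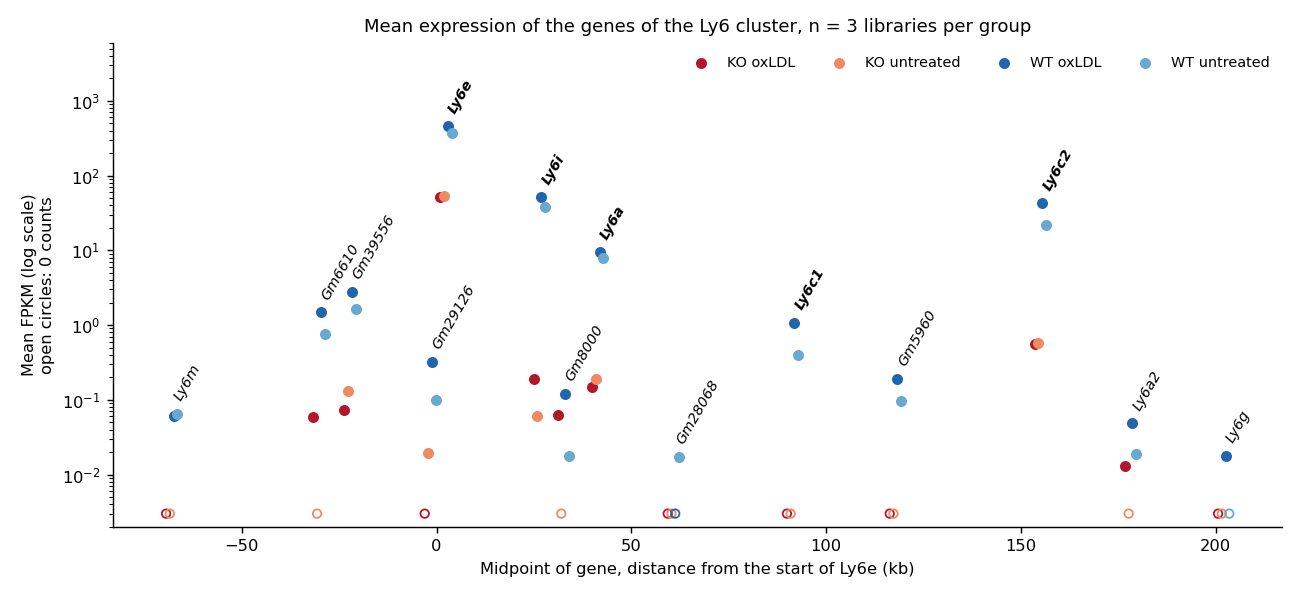
Mean FPKM (vertical axis, log scale, n = 3 libraries) of the genes within 100 kb of the 5 Ly6 genes (bold) in the 4 groups, against the distance of the gene's midpoint from the start of Ly6e in kb. Open circles at the foot mark groups with 0 counts, and for the 5 Ly6 genes, Gm6610 and Gm39556 the KO groups lie below the WT groups.

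To show what else had such a profile, the tested genes nearest to each member were found by the root mean square difference of centred log2 values over the 12 libraries. The values were log2(TMM-scaled CPM + 0.5), with CPM a gene's share of the library's counts, so low genes are drawn toward small differences. Nearest to Ly6c2 were Lox (0.2), an enzyme that cross-links collagen, the interferon-induced GTPase genes Ifi47 (0.25) and Gbp9 (0.25), and Hp (0.26), which encodes the haemoglobin-binding plasma protein haptoglobin. Lox had 2.14 FPKM in KO with oxLDL, 2.29 in untreated KO, 125 in WT with oxLDL and 61.7 in untreated WT. Ifi47 had 3.84 FPKM in KO with oxLDL, 3.16 in untreated KO, 215 in WT with oxLDL and 79.0 in untreated WT.

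For Ly6i the nearest genes were Saa3 (0.24), an acute phase protein, Cfb (0.41), which encodes complement factor B, and the guanylate binding protein genes Gbp6 (0.43) and Gbp10 (0.52). Saa3 had 13.6 FPKM in KO with oxLDL, 11.6 in untreated KO, 1290 in WT with oxLDL and 769 in untreated WT. Among the members, Ly6c2 was the seventh nearest gene to Ly6i, at 0.57. Ly6a had as neighbours Gm10134 (0.22), Gm32089 (0.27), Irgm2 (0.28), an immunity-related GTPase, and 1110002J07Rik (0.3). Irgm2 had 6.98 FPKM in KO with oxLDL, 7.34 in untreated KO, 129 in WT with oxLDL and 72.5 in untreated WT. The offset of 0.5 weighs on both members, which had at most 36 (Ly6a) and 27 (Ly6i) counts per KO library. On the fitted log2 scale, untreated KO against WT was -5.21 for Ly6a and -3.2 for Irgm2. It was -9.05 for Ly6i and -5.95 for Saa3.

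Ly6e was nearest to Ppp1r12b (0.11), a regulatory subunit of myosin phosphatase, Plac8 (0.14), Radx (0.15) and Ptprm (0.17), a receptor tyrosine phosphatase. Ppp1r12b had 1.52 FPKM in KO with oxLDL, 1.45 in untreated KO, 14.3 in WT with oxLDL and 10.9 in untreated WT. Nearest to Ly6c1, whose own profile is set in large part by the offset of 0.5, were Gm13767 (0.14), Rnf19b (0.19), Dram1 (0.19) and Rmi2 (0.2). Dram1, a lysosomal membrane protein gene, had 27.7 FPKM in KO with oxLDL, 29.1 in untreated KO, 128 in WT with oxLDL and 63.6 in untreated WT. These genes were picked for their likeness, so the likeness itself carries no test.

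Other genes of the Ly6 and urokinase receptor domain family were called in both directions. Of 42 listed, 14 were in the table and 7 were tested. This list and those below were chosen with earlier results of these data known, and most genes named from them for their size of change. The p-values of these genes are therefore given as a description only. Counts in this and the other lists stand beside the shares over all tested genes given above, and beside medians over all tested genes of -0.01 for KO against WT untreated, 0.05 with oxLDL, -0.06 for oxLDL in WT and 0.08 for the interaction. Against untreated WT, KO had 2 of the 7 called higher and 2 lower, with a median log2 difference of -0.45. Plaur, the urokinase receptor of macrophages, was the most abundant of them, with 72.5 ± 3.56 FPKM in KO with oxLDL, 65.0 ± 2.62 in untreated KO, 66.8 ± 3.01 in WT with oxLDL and 31.9 ± 3.34 in untreated WT (SD, n = 3). It rose in untreated KO against untreated WT by 1.14 ± 0.07 and with oxLDL in WT by 1.48 ± 0.07 (edgeR's test, adjusted p = 4.11e-09 and 1.12e-10). In KO against WT with oxLDL it fell by 0.18 ± 0.06 (adjusted p = 0.0258 in edgeR's test), although its mean FPKM was higher in KO there.

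Lynx1, a nicotinic acetylcholine receptor modulator of the same family, was lower in KO, at a log2 difference of -1.32 ± 0.3 untreated and -1.98 ± 0.31 with oxLDL (edgeR's test, adjusted p = 0.00375 and 6.91e-05). Ly6d, a lymphocyte precursor and keratinocyte antigen, was at 60 counts in KO with oxLDL, 60 in untreated KO, 66 in WT with oxLDL and 4 in untreated WT. It was higher in untreated KO than in untreated WT by 3.8 ± 1.1 log2 (adjusted p = 0.0161 in edgeR's test). Cd59a, which blocks complement lysis, fell with oxLDL in WT by 1.09 ± 0.4 (adjusted p = 0.033 in edgeR's test). Ly6g, the antigen that defines mouse neutrophils, had 4 counts in all, in WT with oxLDL. With oxLDL, KO had 1 of the 7 called higher and 3 lower than WT, at a median of -0.62. oxLDL in WT left 2 called higher and 1 lower with a median of 0.29, and oxLDL in KO none, with a median of -0.02. For the interaction 2 were called lower, Plaur and Ly6d, with a median of -0.32, and 1 without untreated KO replicate 1.

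Interferon receptor and STAT signalling genes, through which cells respond to interferons, were described next. Of 18 tested, KO against WT untreated had 13 called lower and 1 higher, with a median log2 difference of -1.34, and with oxLDL 16 lower and 1 higher, with a median of -2.75 (-2.54 with genes at 0 counts set to their bounds). Irf7, a transcription factor of the interferon response, had 5.02 ± 0.68 FPKM in KO with oxLDL, 4.62 ± 0.625 in untreated KO, 365 ± 15.9 in WT with oxLDL and 116 ± 1.06 in untreated WT (SD, n = 3). It was lower in KO, at -4.54 ± 0.1 log2 untreated and -6.48 ± 0.11 with oxLDL (edgeR's test, adjusted p = 1.7e-13 and 1.44e-15). Irf1, a transcription factor that interferon gamma induces early, was lower in untreated KO, at -3.56 ± 0.07 log2 (adjusted p = 7.47e-14 in edgeR's test). Ifng, interferon gamma itself, had 4 counts in KO with oxLDL, 10 in untreated KO, 4131 in WT with oxLDL and 166 in untreated WT. Socs1, a brake on this pathway, had 22 counts in KO with oxLDL, 0 in untreated KO, 907 in WT with oxLDL and 143 in untreated WT, at least 48.5-fold lower in untreated KO.

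With oxLDL in WT, 16 of these 18 genes were called higher and 1 lower, at a median of 1.22. Ifng rose by 5.07 ± 0.33 log2, Usp18, an inhibitor of interferon receptor signalling, by 3.12 ± 0.1, and the kinase gene Jak2 by 2.79 ± 0.06 (edgeR's test, adjusted p = 8.18e-09, 3.62e-12 and 8.06e-14). In KO none of the 18 was called with oxLDL, at a median of -0.01. The interaction had 15 called lower and 1 higher, at a median of -1.08. Ifng is made chiefly by natural killer and T cells, whose markers are given above, and its link to the Ly6 levels was not tested.

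The genes that build and remodel the GPI anchor, which Ly6 proteins need to reach the surface, had called counts near those of all genes in untreated cells. Of 29 tested out of 32 listed, 5 were called higher and 3 lower in untreated KO against WT, at a median log2 difference of 0.05, where 14.8% of all tested genes were called higher and 16.2% lower. With oxLDL 12 were called higher and 5 lower, at a median of 0.17. Pgap2, which remodels the lipid of the anchor in the Golgi, had 6.78 ± 0.367 FPKM in KO with oxLDL, 6.91 ± 0.29 in untreated KO, 23.7 ± 0.609 in WT with oxLDL and 16.7 ± 0.33 in untreated WT (SD, n = 3). KO was lower at -1.16 ± 0.05 log2 untreated and -2.11 ± 0.06 with oxLDL (edgeR's test, adjusted p = 3.51e-10 and 1.23e-13). Pigz, a mannosyltransferase, was lower in untreated KO, at -1.6 ± 0.22 log2 (adjusted p = 4.28e-05 in edgeR's test). oxLDL in WT had 5 called higher and 11 lower, at a median of -0.12. Pgap1, which removes a fatty acid from the anchor, fell there by 1.17 ± 0.06 (adjusted p = 4.1e-10 in edgeR's test). oxLDL in KO had none called, and the interaction had 9 called higher and 3 lower, at a median of 0.09.

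Classical monocytes are the cells that carry the most Ly6C, and 16 of their other genes were tested. In untreated cells 11 were called lower and 3 higher in KO, at a median log2 difference of -1.19, and with oxLDL 9 lower and 4 higher, at a median of -1.63. Ccr2 was higher in KO, at 1.09 ± 0.15 log2 untreated and 1.66 ± 0.15 with oxLDL. So were S100a6, at 0.48 ± 0.13 and 1.05 ± 0.13, and Cd177, at 0.9 ± 0.29 and 1.85 ± 0.3. Mgst1 was called higher with oxLDL only, at 0.68 ± 0.08. Hp had 6.05 ± 0.992 FPKM in KO with oxLDL, 5.54 ± 0.267 in untreated KO, 256 ± 15.7 in WT with oxLDL and 181 ± 12.5 in untreated WT (SD, n = 3), a log2 difference of KO against WT of -5.7 ± 0.1 with oxLDL and -4.92 ± 0.1 untreated (SE; adjusted p = 2.54e-15 and 7.53e-14 in edgeR's test). Plac8, a small cysteine-rich protein gene, had 0.219 ± 0.0362 FPKM in KO with oxLDL, 0.245 ± 0.0536 in untreated KO, 4.64 ± 0.382 in WT with oxLDL and 3.03 ± 0.207 in untreated WT. Clec4e, the receptor Mincle, was lower in KO, at -3.4 ± 0.05 log2 untreated and -5.22 ± 0.05 with oxLDL (edgeR's test, adjusted p = 1.38e-14 and 5.69e-17). oxLDL in WT split the list, with 7 called higher and 7 lower at a median of -0.16. Vcan, which encodes the matrix proteoglycan versican, rose there by 4.45 ± 0.13 log2 (adjusted p = 1.02e-12 in edgeR's test). None was called with oxLDL in KO, and the interaction had 6 called higher and 7 lower, at a median of 0.26.

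Genes of non-classical monocytes, which carry little Ly6C, went both ways too. Of 11 tested, 3 were called higher and 5 lower in untreated KO against WT, at a median log2 difference of -0.38, and again 3 and 5 with oxLDL, at a median of 0.09. Cd300e, an activating receptor, had 26 counts in KO with oxLDL, 4 in untreated KO, 7964 in WT with oxLDL and 2025 in untreated WT. Adgre4, an adhesion receptor, was lower in untreated KO, at -5.88 ± 0.14 log2, whereas Ace, angiotensin-converting enzyme, was higher by 3.92 ± 0.23 (edgeR's test, adjusted p = 2.46e-13 and 4.71e-09). oxLDL in WT had 5 called higher and 2 lower, at a median of 0.59, oxLDL in KO none, and the interaction 2 higher and 3 lower, at a median of -0.13.

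**Figure D5:**
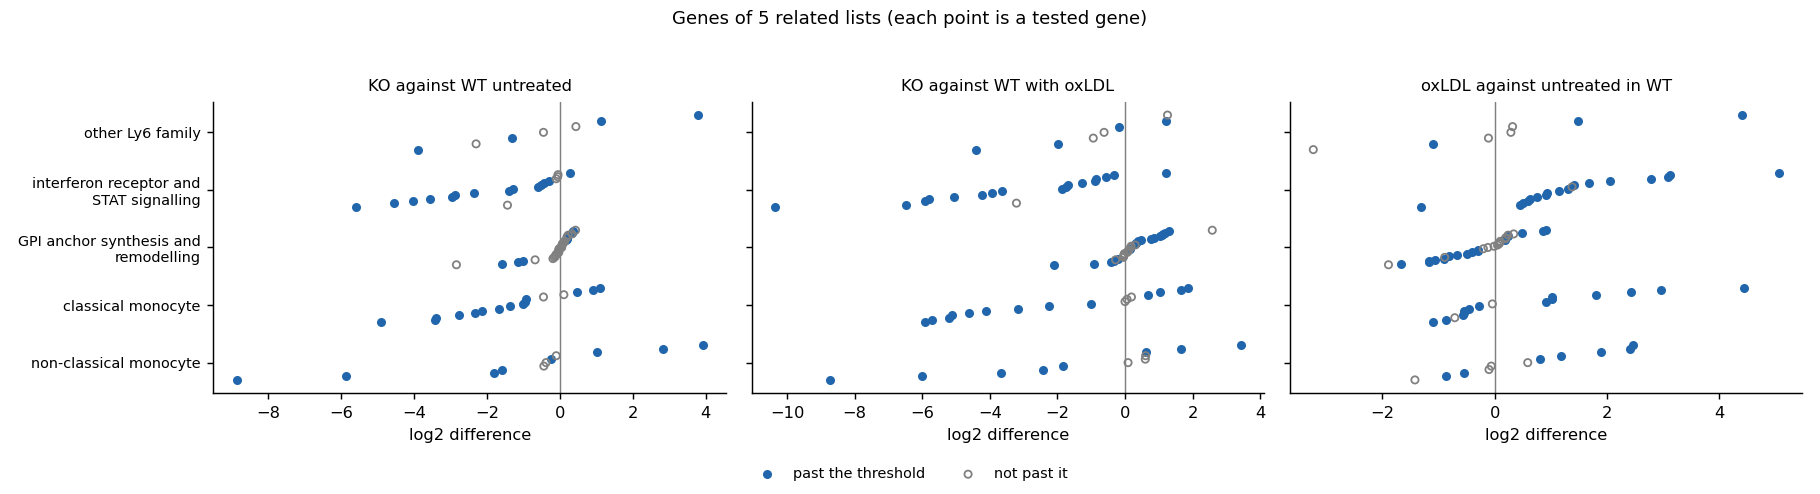
Log2 difference (horizontal axis) of each tested gene of 5 related lists (rows) in 3 comparisons (the genotypes untreated, the genotypes with oxLDL, and oxLDL in WT), filled where the adjusted p was under 0.05 and set to the lower bound where a group had 0 counts. Interferon receptor and STAT signalling genes lie mostly left of 0 in KO and right of 0 with oxLDL in WT, and the other lists spread to both sides.

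The gene annotation deposited with the table gives Ly6a, Ly6c1, Ly6c2 and Ly6i the same Gene Ontology terms, and Ly6e fewer of them. These 4 members carry the term for an anchored membrane component, which 96 genes of the table have (0.352%). They also carry the term for acetylcholine receptor inhibitor activity, which 9 genes have (0.033%). Ly6e shares only the general term for membrane with the other 4. This describes the annotation and does not show whether the Ly6e protein is anchored.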

How the data were processed

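The deposited table holds raw read counts and FPKM per gene and library, per the file headers. FPKM were deposited as the authors computed them, from fragment number, transcript length and library size. The labels' protocols describe paired sequencing of poly(A) RNA, in a text that speaks of adipose RNA and so departs from the macrophage source label. HISAT2 2.0, Bowtie 0.12.2 and build mm8 are named in the submitters' processing notes. The coordinates match GRCm38.p6, where 99.93% of 21990 genes matched by Entrez identifier overlap, so positions are given as GRCm38. Not given in the sources used here are the counting tool and any use of strand.

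Counts of all 12 libraries were fitted in edgeR 4.0.16 (R 4.3.3) with its quasi-likelihood test, TMM scaling and filterByExpr, as 4 groups with no block, and 5 contrasts were tested. Calls were made where the p adjusted by Benjamini-Hochberg over 17291 genes was under 0.05. Log2 differences are fitted values with standard errors (SE). Where a group had 0 counts, folds are bounds against 3 counts over the group. Library pairs within a group differed by 11.3 to 32.1 chi-square units per degree of freedom, so none was a duplicate. DESeq2 1.42.0, limma 3.58.1 on FPKM, other filters and scalings, a replicate block and leaving out libraries were the alternatives.

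The 5 members, the gene lists and the marker lists were chosen with earlier results of these data known. Named genes are the members, Wee1, up to 4 called genes per list and contrast by size of change, the 4 nearest profiles per member, and the genes within 100 kb. Classical monocyte genes called higher in KO were named in addition. One gene that this rule names is not reported here.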

Additional observations from a re-analysis of the deposited data

Results flagged for a closer look

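The fitted oxLDL changes of Ly6c2 and of Ly6e differed between the genotypes, taken as the change in KO minus the change in WT. For Ly6c2 the difference was -1.41 ± 0.19 on the log2 scale (SE, n = 3 per group), from -0.03 in KO and 1.38 in WT. For Ly6e it was -0.77 ± 0.06, from -0.08 in KO and 0.69 in WT. Both genes were chosen with these values known, so the differences are a description and no p-value is given. Over all tested genes, 19.6% were called lower for this interaction.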

How the results depend on the processing

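Of 507 recomputed values for 23 results on the 5 Ly6 genes, 489 kept their direction, where called, and their side of the threshold, and none reversed. The genotype differences of all 5 genes stayed called lower in KO under every alternative run. The oxLDL call of Ly6a in WT was lost with library totals alone (0.25 log2), limma on log2(FPKM + 1) (0.23) or log2(FPKM + 0.1) (0.25), no filter on low counts (0.64), and both WT libraries numbered 2 left out (0.63), the last chosen after the data were seen. Leaving out 1 library gave Ly6a 0.55 to 0.74. That of Ly6i was lost with library totals (0.42), DESeq2 (0.87), limma on log2(FPKM + 0.1) (0.42) and both WT libraries numbered 2 left out (0.84), and that of Ly6c1 with the last alone (1.32). The Ly6a interaction was called with DESeq2 (-1.03), and leaving out 1 library gave -1.28 to -0.14. Summing Ly6c1 and Ly6c2 counts, also chosen after the data were seen, changed no Ly6c2 call. On log2(FPKM + 1) low genes differ less, as for untreated Ly6a in KO against WT (-2.92, against -5.21 in edgeR), and 2 instead of 4 other family genes were called in each genotype comparison. For the interaction, 1 instead of 2 was called without untreated KO replicate 1 or without both WT libraries numbered 2.

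The count of genes called with oxLDL in KO, 2 in edgeR's fit, was 110 with DESeq2, 61 with only the groups compared, 7 without both WT libraries numbered 2, 1 with limma on log2(FPKM + 1) or with no filter, and 0 on log2(FPKM + 0.1). Leaving out 1 library gave 0 to 57, the highest without WT with oxLDL replicate 1. The cause was not tested. Fitted with a replicate block it was 0, and the block changed no call on the 5 genes. The numbers do not pair the samples: same-numbered libraries of different groups had correlations of deviations from -0.162 to 0.124, over 0.1 in 2 of 18, and 12 of 36 best matches carried the own number.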
